A study of Mus musculus with 6 samples.

Results

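The genes described here are 8 carbonic anhydrase genes, Car2, Car3, Car4, Car5b, Car12, Car13, Car14 and Car15, and the transporter genes Slc4a4 and Slc9a3 of proximal tubular bicarbonate recovery. They were chosen by name, partly because of the difference of Car3 between the genotypes compared here, and every probe set annotated to one of them was taken. That gave 24 of 45037 probe sets and 10 of 18193 genes. The samples were kidneys of male mice aged 2 to 3 months, 3 arrays labelled ERRa KO and 3 arrays labelled WT, all on a standard diet. ERRα, encoded by Esrra, is an orphan nuclear receptor that regulates genes of energy metabolism. The left and right kidney were ground as one before RNA was extracted, so each value mixes all cells of the organ. The labels give neither the strain nor the allele removed, and they call the replicates biological without saying in words that each is another animal.

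In the proximal tubule, filtered bicarbonate is recovered in a cycle. The sodium-proton exchanger NHE3, encoded by Slc9a3, secretes protons across the luminal membrane. Membrane-bound carbonic anhydrases facing the lumen turn the resulting carbonic acid into carbon dioxide and water, cytosolic carbonic anhydrase turns carbon dioxide back into protons and bicarbonate inside the cell, and the sodium-bicarbonate cotransporter NBCe1, encoded by Slc4a4, passes bicarbonate to the blood side. Cytosolic carbonic anhydrase II (Car2) also serves the acid-secreting and base-secreting intercalated cells of the collecting duct. Carbonic anhydrase III (Car3) has low catalytic activity and is best known as an abundant cytosolic protein of skeletal muscle, fat and liver.

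All values are the authors' log2 RMA values, a scale on which array brightness has been equalised and low levels are compressed. A difference is ERRa KO minus WT on that scale, SE is its standard error in limma's fit, and a gene was called at a Benjamini-Hochberg adjusted p under 0.05 over all genes. Esrra itself fell: it read 6.66, 6.51 and 6.41 in the ERRa KO kidneys, against 9.43, 9.43 and 9.52 in the WT kidneys (difference -2.93, SE 0.08, limma adjusted p = 9.85e-06). A table made by the authors heads the same columns with the genotypes exchanged, while its own fold change column follows the sample labels used here. ERRa KO replicate 3 stood apart, with 15 of 17 liver transcripts at their highest of the 6 arrays, and values without it are given where they bear on a result. The lists of other genes used below were written with earlier results of these data known.

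Among the cytosolic enzymes, Car3 read higher in the ERRa KO kidneys. It has 4 probe sets. The one used for the gene read 12.39, 12.50 and 12.66 in the ERRa KO kidneys, against 11.54, 11.27 and 11.21 in the WT kidneys. All 3 ERRa KO values lay above all 3 WT values, and the difference was 1.17 (SE 0.11), or 2.26-fold. A second probe set read 9.93, 9.999 and 10.21 in the ERRa KO kidneys, against 8.91, 8.50 and 8.59 in the WT kidneys. Here too the genotypes did not overlap, and the difference was 1.38 (SE 0.12), or 2.60-fold. Because this difference helped to choose the list, it is given as a description with no test.

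The remaining probe sets of Car3 did not show that difference. The third probe set read 6.71, 5.58 and 5.90 in the ERRa KO kidneys, against 6.43, 6.05 and 5.93 in the WT kidneys. Its genotypes overlapped, and the spread within the ERRa KO group (SD 0.585, n = 3) was larger than its difference of -0.07 (SE 0.27). Leaving out ERRa KO replicate 1 gave -0.40, and leaving out replicate 2 of the same genotype gave 0.17, so single arrays set its sign. The fourth probe set averaged 3.70 ± 0.12 in the ERRa KO kidneys and 3.75 ± 0.07 in the WT kidneys (SD, n = 3 each), below the median level of 5.02 over all probe sets. Averaged over its 4 probe sets, Car3 differed by 0.61. Which transcripts each probe set reads was not tested.

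**Figure D1:**
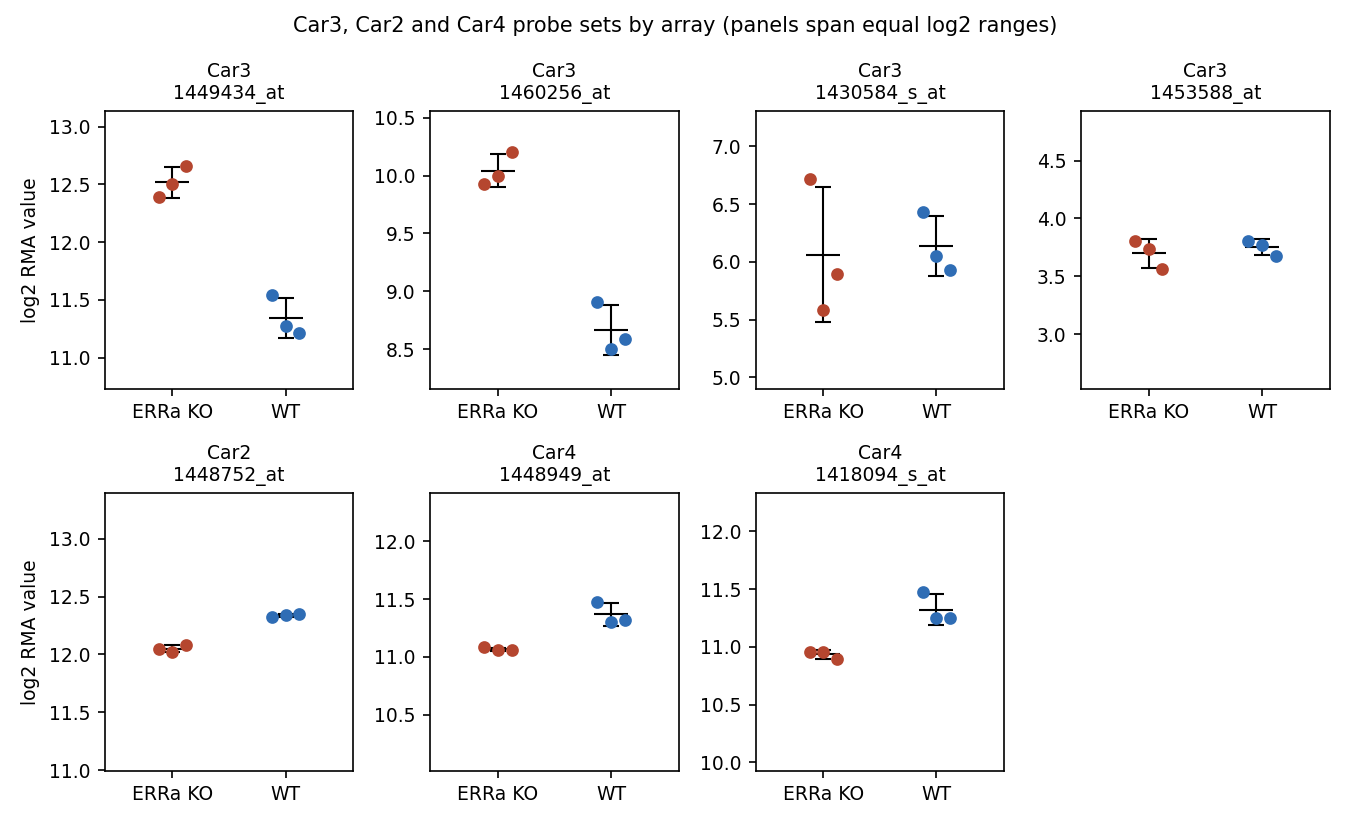
Log2 RMA value (y axis) of each probe set of Car3, Car2 and Car4 in the ERRa KO and WT kidneys (x axis). Points are single arrays and bars are the mean ± SD of 3 arrays, and all panels have the same height in log2 units. The 2 left panels of Car3 show ERRa KO above WT by 1.17 and 1.38, the other 2 overlap, and Car2 and both probe sets of Car4 lie lower in ERRa KO by 0.29 to 0.39.

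Car3 was followed across arrays beside marker transcripts of tissues in which it is abundant. Brown fat markers read higher along with it in 8 of 8 measured genes, with a median difference of 0.41 against 0.01 over all genes. Of the 8, 7 were higher at a limma unadjusted p under 0.05, against 6.22% of all genes. In 6 the ERRa KO values all lay above WT, against 9.11% of all genes. The summed linear level of the 8 genes ran from 1643 to 1954 in the ERRa KO arrays, against 1249 to 1413 in the WT arrays, with no overlap. The brightest of the 8 genes weigh most in these sums. They were Ppara (mean 9.77 in ERRa KO, 9.52 in WT) and Cox7a1 (8.59 in ERRa KO, 8.18 in WT). A sum without these genes was not made. The cytochrome oxidase subunit gene Cox8b was the 1 called gene of the 8 (1.06, SE 0.13, limma adjusted p = 0.0328). Over all genes 0.269% were called higher. Ucp1, the uncoupling protein that defines brown fat, read 6.995, 7.40 and 6.66 in the ERRa KO kidneys, against 5.60, 5.04 and 6.88 in the WT kidneys. Cidea, a lipid droplet gene of brown fat, read 8.17, 7.89 and 7.49 in the ERRa KO kidneys, against 7.13, 6.24 and 7.22 in the WT kidneys, without overlap (limma adjusted p = 0.199). In WT replicate 3 Ucp1 read above ERRa KO replicate 3, while the main probe set of Car3 was at its lowest of the 6 arrays there. The second probe set of Car3 was at its lowest in WT replicate 2, where Ucp1 and Cidea were at their lowest too. The part of brown fat in the Car3 difference was not tested.

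White fat markers also read higher in 8 of 8 measured genes, with none called and a median of 0.10. Their differences ran from 0.07 to 0.79. A limma unadjusted p under 0.05 was found for 2 of the 8, both higher, against 6.22% of all genes. Their summed levels overlapped, at 10234 to 11082 in the ERRa KO arrays and 8656 to 10791 in the WT arrays, and 68.8% to 72.7% of each sum was Pck1, a gluconeogenic gene that kidney tubules also express. Without Pck1 the sums were 2890 to 3323 in the ERRa KO arrays and 2629 to 3104 in the WT arrays, which overlapped too. Adipoq, which encodes the fat hormone adiponectin, read 8.86, 8.51 and 8.52 in the ERRa KO kidneys, against 8.74, 8.48 and 8.46 in the WT kidneys. Skeletal muscle markers read higher in 8 of 12 measured genes and lower in 4, with none called, a median difference of 0.04 and a range of -0.08 to 0.27. A limma unadjusted p under 0.05 was found for 1 of them, which was higher, against 6.22% of all genes. Their summed levels overlapped (617 to 636 in ERRa KO, 602 to 647 in WT), and 11 of 12 genes lay below the median level of all genes. The muscle creatine kinase gene Ckm averaged 5.47 ± 0.03 in ERRa KO and 5.41 ± 0.03 in WT (SD, n = 3 each).

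Liver transcripts read higher in 15 of 17 measured genes, with none called and a median difference of 0.79. In 3 genes the ERRa KO values all lay above WT, against 9.11% of all genes. The direction count and the median difference include ERRa KO replicate 3, in which 15 of the 17 genes had their highest value. The median level of the 17 genes was 5.31, 5.37 and 8.23 in the ERRa KO arrays, against 5.35, 5.36 and 5.37 in the WT arrays. The liver transcripts summed to 22004, 25050 and 30415 in the 3 ERRa KO arrays, against 23198 to 24256 in the WT arrays. Of each sum, 72.6% to 94.98% was Cyp2e1 and Ttr. Without these genes the sums were 1181, 1349 and 8321 in the ERRa KO arrays, against 1165 to 1334 in the WT arrays, so the high sum was that of ERRa KO replicate 3. Apoc3, an apolipoprotein gene, read 8.205, 8.48 and 9.04 in the ERRa KO kidneys, against 7.83, 7.62 and 7.94 in the WT kidneys, without overlap (0.78, limma adjusted p = 0.168). Ahsg, which encodes the plasma protein fetuin-A, read 4.64, 4.56 and 7.29 in the ERRa KO kidneys, against 4.56, 4.43 and 4.08 in the WT kidneys (1.14, limma adjusted p = 0.543), with its lowest ERRa KO value next to its highest WT value. Alb, the albumin gene, read 6.48, 6.80 and 12.07 in the ERRa KO kidneys, against 6.77, 6.59 and 6.72 in the WT kidneys, high in ERRa KO replicate 3 alone. Without ERRa KO replicate 3 the difference of Car3 was 1.10 in its main probe set and 1.30 in the second.

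**Figure D2:**
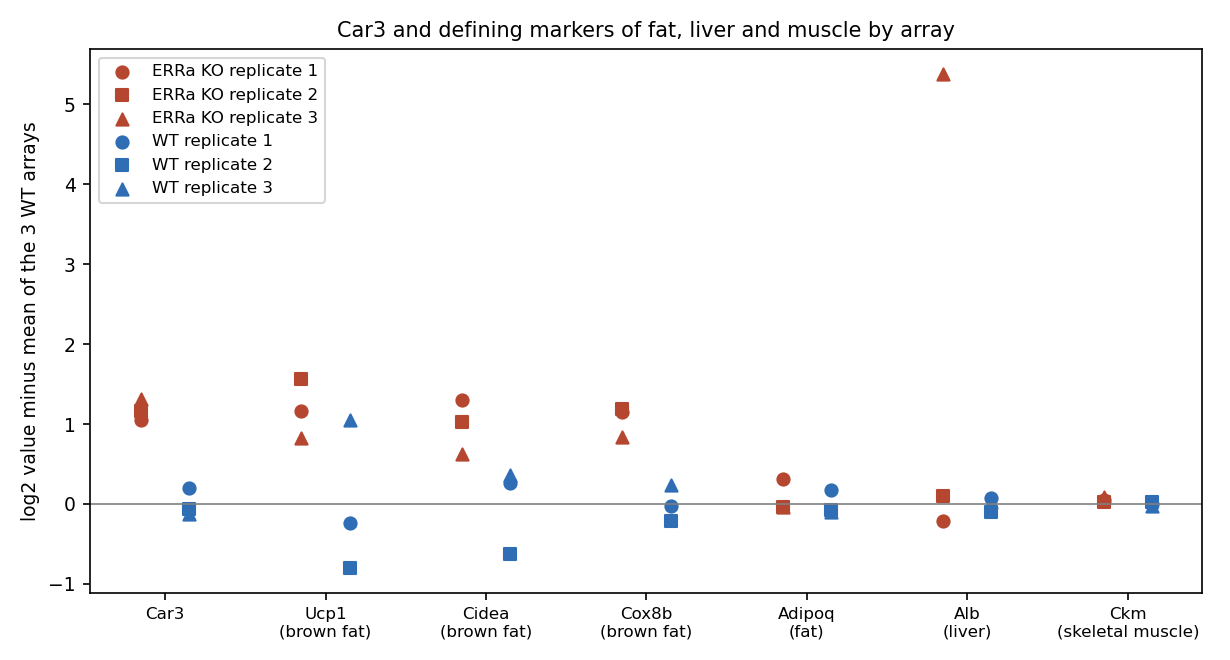
Log2 value minus the mean of the 3 WT arrays (y axis) for Car3 and for marker genes of fat, liver and skeletal muscle (x axis), one symbol per array. Car3 is 1.05 to 1.31 above the WT mean in all 3 ERRa KO arrays, Alb is high in ERRa KO replicate 3 alone, and Ucp1 in WT replicate 3 lies among the ERRa KO values.

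Car2, the high-activity cytosolic enzyme, read lower in all 3 ERRa KO kidneys but was not called. Its single probe set read 12.05, 12.02 and 12.09 in the ERRa KO kidneys, against 12.32, 12.34 and 12.35 in the WT kidneys. The genotypes did not overlap, and the values within each genotype spanned less than the distance between them. The difference was -0.29 (SE 0.05, limma adjusted p = 0.0740), that is 1.22-fold lower in ERRa KO, with a 95% interval of -0.41 to -0.17. It passed the threshold in a pair of alternative fits, one restricted to genes above the median level (adjusted p = 0.0230) and one that lets the prior variance follow the level (adjusted p = 0.00415), which called 2.42% and 1.7% of the genes they tested, against 0.495% in the fit reported here. An annotation of the mouse genome has no gene between Car3 and Car2, which are neighbours on chromosome 3 and differed here in opposite directions.

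Car2 is made in several segments of the nephron, and in whole kidney fewer cells of a type cannot be told apart from less RNA per cell. Intercalated cell markers read lower in 11 of 12 measured genes, with none called and a median difference of -0.20. Of the 12, 6 were lower at a limma unadjusted p under 0.05, against 6.2% of all genes, and 0 were higher. Without overlap, 6 lay below WT, against 9.56% of all genes, and 0 above. The summed linear level of the 12 genes was 4010 to 4328 in the ERRa KO arrays and 4481 to 5201 in the WT arrays, without overlap. Aqp6, a water channel of these cells, had the largest difference among them (-0.62, limma adjusted p = 0.0668). Principal cell markers of the collecting duct read lower in 4 of 7 measured genes and higher in 3, with none called and a median of -0.09. At a limma unadjusted p under 0.05, 3 read lower and 1 higher, against 6.2% and 6.22% of all genes. Avpr2 (-0.35) and Scnn1g (-0.30) lay below WT without overlap, and Fxyd4 (0.25) lay above. Over all genes 9.56% lay below and 9.11% above. The summed levels of the 7 genes overlapped, at 5552 to 6050 in the ERRa KO arrays and 5086 to 6336 in the WT arrays. Markers of the proximal tubule and thick ascending limb are given below beside Car4. The part of any of these cells in the Car2 values was not tested.

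The third cytosolic enzyme, Car13, gave no clear difference. Its probe set for the gene read 4.63, 4.86 and 4.25 in the ERRa KO kidneys, against 4.51, 4.70 and 4.61 in the WT kidneys, which overlapped (-0.03, limma adjusted p = 0.953, 95% interval -0.36 to 0.30). All 3 of its probe sets had means below the median level of all probe sets. One of the others read 3.21, 3.39 and 3.32 in the ERRa KO kidneys, against 3.56, 3.42 and 3.57 in the WT kidneys. These did not overlap, but the difference of -0.21 was not called over all probe sets (adjusted p = 0.377).

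Of the enzymes on the cell surface, Car4, anchored by a lipid to the luminal membrane of the proximal tubule, read lower in both of its probe sets. The one used for the gene read 11.08, 11.06 and 11.06 in the ERRa KO kidneys, against 11.48, 11.30 and 11.32 in the WT kidneys. The other read 10.96, 10.96 and 10.89 in the ERRa KO kidneys, against 11.48, 11.25 and 11.25 in the WT kidneys. Neither overlapped between genotypes, and in both the highest value was that of WT replicate 1. The gene's difference was -0.30 (SE 0.06, limma adjusted p = 0.111), that is 1.23-fold lower in ERRa KO, with a 95% interval of -0.45 to -0.15, and it was not called. Over all probe sets the differences were -0.30 (adjusted p = 0.173) and -0.39 (adjusted p = 0.143). As with Car2, the same pair of alternative fits called the gene, with adjusted p of 0.0427 above the median level and 0.0213 with the prior variance following the level. Over probe sets above the median level, limma called neither gene, with adjusted p of 0.0844 and 0.0738 for Car4 and 0.0567 for Car2.

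Proximal tubule markers did not move with Car4 as a list. Of 14 measured genes 5 read lower and 9 higher, with a median difference of 0.01, and their summed linear level was 90465 to 93010 in the ERRa KO arrays and 91665 to 92672 in the WT arrays, which overlapped. The sodium-glucose cotransporter gene Slc5a2 of the early proximal tubule read higher (0.26, limma adjusted p = 0.143) and was not called. Car4 is also made in the thick ascending limb, whose markers read lower in 5 of 6 genes with none called and a median of -0.22. Of the 6, 3 were lower at a limma unadjusted p under 0.05, against 6.2% of all genes, and 0 were higher. Without overlap, 3 lay below WT and 1 above, against 9.56% and 9.11% of all genes. The summed levels of the 6 genes were 21326 to 24894 in ERRa KO and 24914 to 26877 in WT, which did not overlap. The part of that segment in the Car4 values was not tested.

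The other surface enzymes overlapped between genotypes. Car12, a transmembrane enzyme of the blood-side membrane, read 10.76, 10.62 and 10.65 in the ERRa KO kidneys, against 10.75, 10.82 and 10.83 in the WT kidneys (-0.12, SE 0.06, limma adjusted p = 0.477). Another probe set of it read lower in every ERRa KO array than in any WT array, by -0.15, and was not called (adjusted p = 0.561), and the third read 0.05 higher. Car14, a transmembrane enzyme of the proximal tubule, read 10.14, 9.87 and 9.72 in the ERRa KO kidneys, against 9.90, 9.84 and 10.28 in the WT kidneys (-0.09, SE 0.14, limma adjusted p = 0.831). Its 95% interval, -0.43 to 0.24, is wide because both genotypes were spread, with SDs of 0.21 in ERRa KO and 0.24 in WT. Car15, a lipid-anchored enzyme, read 9.98, 9.91 and 10.07 in the ERRa KO kidneys, against 9.84, 9.96 and 10.09 in the WT kidneys (0.02, limma adjusted p = 0.927, 95% interval -0.16 to 0.21).

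Car5b, the mitochondrial enzyme of this set, overlapped between genotypes as well. It read 8.55, 8.55 and 8.37 in the ERRa KO kidneys, against 8.48, 8.54 and 8.38 in the WT kidneys (0.02, SE 0.07, limma adjusted p = 0.934, 95% interval -0.15 to 0.19). Its other probe set averaged 7.41 ± 0.03 in the ERRa KO kidneys and 7.38 ± 0.05 in the WT kidneys (SD, n = 3 each).

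The transporters that begin and end the cycle were not called. Slc9a3 read 8.77, 8.91 and 8.73 in the ERRa KO kidneys, against 8.57, 8.80 and 8.57 in the WT kidneys. The genotypes overlapped only through WT replicate 2, and the difference was 0.16 (SE 0.08, limma adjusted p = 0.506, 95% interval -0.04 to 0.35). Its second probe set averaged 5.52 ± 0.22 in the ERRa KO kidneys and 5.54 ± 0.10 in the WT kidneys (SD, n = 3 each).

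Slc4a4 has 5 probe sets, and in all of them the genotypes overlapped. The one used for the gene read 12.30, 12.27 and 12.53 in the ERRa KO kidneys, against 12.56, 12.26 and 12.40 in the WT kidneys (-0.04, SE 0.10, limma adjusted p = 0.895). Its 95% interval was -0.27 to 0.19. The differences of the other 4 ran from -0.13 to 0.03.

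**Figure D3:**
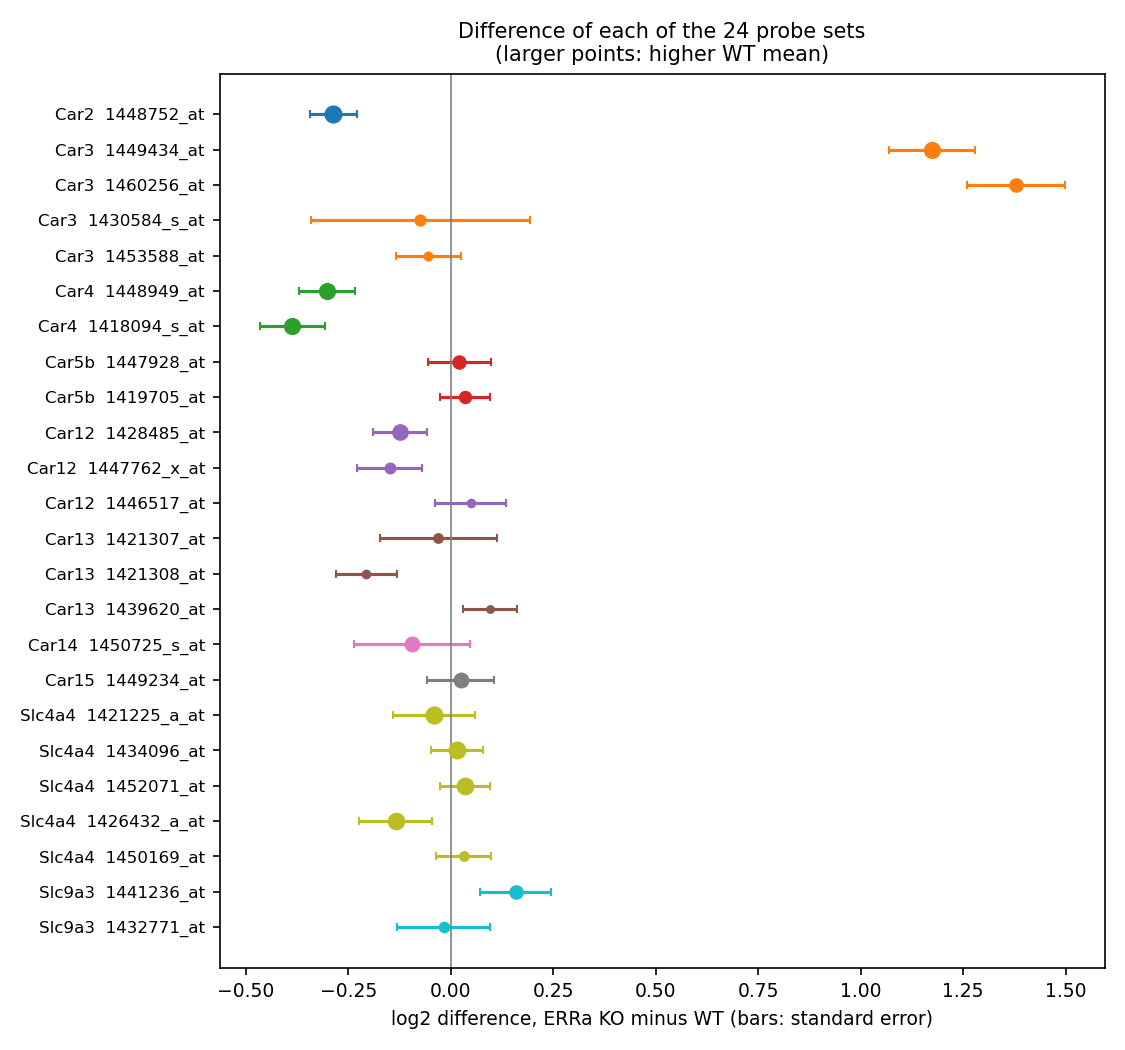
Log2 difference, ERRa KO minus WT (x axis), of each of the 24 probe sets (y axis), with the standard error of the fit as bars and larger points for a higher WT mean. A pair of Car3 probe sets stands at 1.17 and 1.38, Car2 and both probe sets of Car4 lie at -0.29 to -0.39, and the others lie between -0.21 and 0.16.

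Counted together, 0 of the 9 genes other than Car3 were called by limma in the gene table, in which 0.495% of all genes were called, 0.269% higher and 0.225% lower in ERRa KO. Of the 9 genes 6 read lower, as did 47.4% of all genes, and their median difference was -0.04, against 0.0070 over all genes. At an unadjusted p under 0.05 (12.4% of all genes), 2 of the 9 read lower, Car2 and Car4, and 0 read higher, against 6.2% of all genes lower and 6.22% higher. Of the 9 genes the genotypes of 2, again Car2 and Car4, did not overlap, with ERRa KO below WT in both. Over all genes 18.7% did not overlap, 9.56% with ERRa KO below and 9.11% with ERRa KO above.

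The same 9 genes have 20 probe sets, of which limma called 0. Over all probe sets 0.111% were called, 0.0644% higher and 0.0466% lower in ERRa KO. An unadjusted p under 0.05 was found for 4 of the 20, all lower in ERRa KO, against 10.9% of all probe sets, 5.77% lower and 5.1% higher. Of the 20, 5 lay below WT without overlap and 0 above, against 16.5% of all probe sets without overlap, 8.39% below and 8.11% above. In all, 11 of the 20 read lower, as did 49.1% of all probe sets. With a prior variance that follows the level, 3 of the 20 were called, those of Car2 and Car4, and 0.808% of all probe sets. Both probe sets of Car4 read one gene, and they are not separate evidence.

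Promoter windows of RefSeq on GRCm38.p6, from 250 bases before to 50 bases after an annotated start, were found for 7 of the 10 genes, 8 windows in all, with 2 for Slc4a4. Car2, Car3 and Car13 had none. ERRα is known to bind the extended hormone receptor sequence TNAAGGTCA, which contains AAGGTCA and, within it, the receptor hexamer AGGTCA. On both strands, TNAAGGTCA was in 0 of the 8 windows and 1.28% of all 32851 windows, AAGGTCA in 0 of the 8 and 4.72% of all, and AGGTCA in 1 of the 8 and 16.3% of all. The Car4 window is shown because both probe sets of Car4 read lower, and the second Slc4a4 window because it alone holds the hexamer. Capitals mark TATAAA in the Car4 window, whose first base is at position 43 after the start and which 13.6% of all windows hold, and TGACCT, the hexamer read on the other strand, in the Slc4a4 window, with its first base at position -121. A match or its absence in these windows is a description of their letters.
Car4 promoter, chr11:84957504-84957803, plus strand: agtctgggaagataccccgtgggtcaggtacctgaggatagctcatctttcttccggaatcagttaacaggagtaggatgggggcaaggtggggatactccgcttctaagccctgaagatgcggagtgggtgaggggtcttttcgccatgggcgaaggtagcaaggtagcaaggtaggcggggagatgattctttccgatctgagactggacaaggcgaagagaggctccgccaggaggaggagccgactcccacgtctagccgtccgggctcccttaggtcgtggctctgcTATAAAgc
Slc4a4 second promoter, chr5:89027716-89028015, plus strand: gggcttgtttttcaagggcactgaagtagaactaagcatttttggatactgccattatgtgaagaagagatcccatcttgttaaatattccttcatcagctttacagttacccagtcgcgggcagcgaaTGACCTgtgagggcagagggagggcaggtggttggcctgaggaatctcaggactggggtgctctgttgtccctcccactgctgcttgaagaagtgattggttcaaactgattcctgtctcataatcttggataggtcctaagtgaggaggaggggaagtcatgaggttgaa

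The other carbonic anhydrase genes of the family were measured as well. Of 8 genes, 3 read lower and 5 higher, 0 were called by limma and 2 had an unadjusted p under 0.05, both higher, against 6.22% of all genes, with a median difference of 0.11. Car5a, the other mitochondrial enzyme, known mainly from liver, averaged 5.87 ± 0.04 in the ERRa KO kidneys and 5.54 ± 0.21 in the WT kidneys (SD, n = 3 each; 0.34, limma adjusted p = 0.231). Car8, a family member without catalytic activity, differed by 0.33 (adjusted p = 0.339). Car1, the red cell enzyme, had a difference of 0.10 (adjusted p = 0.795).

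Other bicarbonate and proton transporters were not called. Of 16 measured genes 8 read lower and 8 higher. By limma 0 were called, and an unadjusted p under 0.05 was found for 4 of the lower and 2 of the higher genes, against 6.2% and 6.22% of all genes (median difference over the list 0.0020). These lower genes are not separate from other lists. Slc4a1, Slc4a9 and Slc26a4 were also counted among the intercalated cell markers, and Slc26a6 is counted again among the partners and regulators below. Slc4a1, the blood-side anion exchanger of acid-secreting intercalated cells, read 0.40 lower (-0.40, SE 0.08, limma adjusted p = 0.0831). Slc9a5, a sodium-proton exchanger known mainly from brain, read 0.29 higher (adjusted p = 0.120) at a WT mean of 3.84, below the median level.

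Among 19 partners and regulators of NHE3 and NBCe1, 9 read lower and 10 higher, 0 were called by limma, 3 had an unadjusted p under 0.05, all lower (6.2% of all genes), and the median was 0.02. Slc9a3r2, which encodes NHERF2, a scaffold protein that binds NHE3, averaged 7.96 ± 0.08 in the ERRa KO kidneys and 8.28 ± 0.04 in the WT kidneys (SD, n = 3 each; -0.32, SE 0.06, limma adjusted p = 0.0946). Slc26a6, a luminal anion exchanger, differed by -0.21 (adjusted p = 0.352). The alternative fits that called Car2 and Car4 also called Slc4a1 and Slc9a3r2, and no other gene of these lists.

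Ammonia genesis and transport, by which the kidney makes new bicarbonate, had 9 measured genes, 4 lower and 5 higher, with a median of 0.01. By limma 0 were called and 2 had an unadjusted p under 0.05, both lower (6.2% of all genes): the amino acid transporter gene Slc7a8 (-0.19, adjusted p = 0.209) and the collecting duct ammonia channel gene Rhcg (-0.20, adjusted p = 0.327). Of 14 shared subunits of the vacuolar proton pump, which adds to luminal proton secretion, 5 read higher and 9 lower, the median difference was -0.04, and limma called 0. The 1 with an unadjusted p under 0.05, against 12.4% of all genes, was Atp6v1f (0.19, adjusted p = 0.283), and the next smallest p was that of Atp6v0e (-0.13, adjusted p = 0.469).

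**Figure D4:**
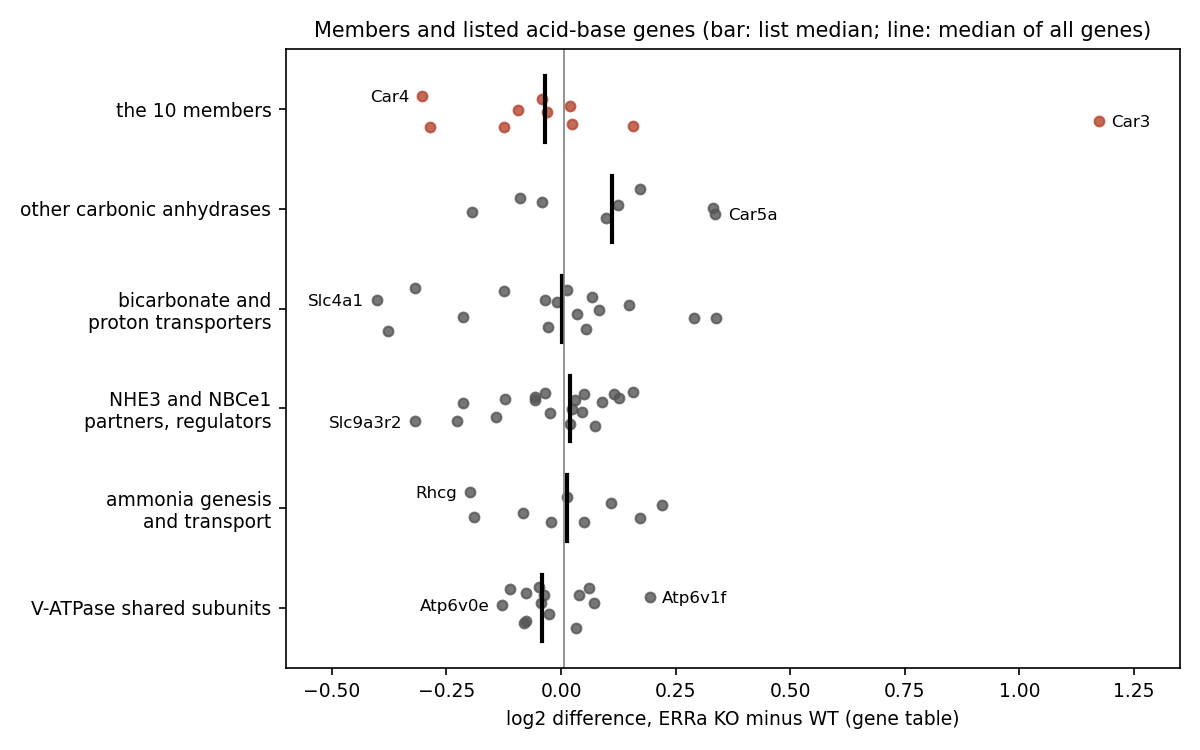
Log2 difference, ERRa KO minus WT (x axis), of the 10 members and of the genes of 5 acid-base lists (y axis), with 1 point per gene, a bar at each list's median and a vertical line at the median of all genes. Car3 stands at 1.17, and every other gene shown lies between -0.40 and 0.34.

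Genes whose 6 values followed those of Car3 most closely were named by their Pearson correlation with its main probe set. They were Cth (0.997), an enzyme of cysteine synthesis, Ces1d (0.992), a carboxylesterase, Akr1c21 (0.992), a hydroxysteroid dehydrogenase, Ugt2b34 (0.990), a glucuronosyltransferase, and Dqx1 (0.987). Their differences ran from 0.13 for Akr1c21 to 0.71 for Ugt2b34, all smaller than that of Car3. These 6 points include the split by genotype that chose Car3, and 108 genes had a value above 0.95. For Slc4a4 the same rule named Atp9a (0.996), Vdac1 (0.994), Cers2 (0.990), Abcf2 (0.987) and Aph1b (0.982), whose differences between genotypes ran from -0.03 to -0.01.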

How the data were processed

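Log2 values were deposited by the authors for 45101 probe sets on 6 arrays, made with RMA per the submitters' processing notes; no source used here gives its settings. Array medians were 5.01 to 5.06, and the number of arrays, 3 per genotype, limits precision. The authors' deposited table gives a log2 fold change, which matches these values to within 7.76e-07, and a p-value per probe set, whose test is not stated and which was not used; its array columns carry the opposite genotype heads, so genotypes were taken from the sample labels. With 64 controls left out, 45037 probe sets remained, of which 34945 name 1 gene, 932 several and 9160 none. For each gene the probe set of highest mean was kept, giving 18193 genes. Differences were tested with limma 3.58.1 in R 4.3.3 (lmFit, eBayes, two-sided, genotype only, no filter), with adjustment over all genes, or over all probe sets in a separate fit. The p-values set each difference against the spread between arrays of the same genotype, which eBayes draws toward a value shared by all genes. Whether each array is another animal is not said in words. The members, lists and tests were chosen with earlier results of these data known. Named were all members, the 2 genes with the smallest p of each pathway list, the 5 closest patterns, and, in each marker list, up to 2 genes by level and up to 2 by size of a difference without overlap, of which only those bearing on a member's values are given; Ucp1, Adipoq, Alb, Ckm and Car1 were added after their values were seen. Of 70 listed pathway genes 65 were measured on a probe set of their own, and the others are not analysed here. Promoters are RefSeq's, on GRCm38.p6. Alternatives were other filters, probe set rules, weights, scalings and arrays left out.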

Additional observations from a re-analysis of the deposited data

How the results depend on the processing

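Of the 9 genes other than Car3, 0 were called by limma with the replicate block, array quality weights, a repeated quantile normalization, averaged probe sets or any 1 array left out. A fit to genes above the median level, which tests fewer genes, gave 2 of 220 calls (2.42% of 9096 genes). The same filter over probe sets called 0 of the 15 probe sets of these genes that it kept, and 143 of 22518 in all. A prior variance that follows the level gave 2 of 309 (1.7%) and 3 of the 20 probe sets (0.808% of all). The listed acid-base genes likewise had 2 calls in each of these fits over genes. Deviations of same-numbered arrays correlated at -0.04, -0.0031 and -0.08, and those of differently numbered arrays at -0.07 to 0.10. The labels give no pairing, and these values cannot exclude one. The replicate block gave 18 called genes in all, against 90 without it. Leaving out 1 array gave 10 (without WT replicate 1) to 39 (without ERRa KO replicate 3). Without 1 array the differences ran from -0.30 to -0.27 for Car2, -0.34 to -0.25 for Car4 and 1.10 to 1.27 for Car3, which was 0.61 over averaged probe sets; the second probe set of Car3 ran from 1.30 to 1.4996 and the third from -0.40 to 0.17. Values near 0 changed sign, with ranges of -0.022 to 0.081 for Car5b, -0.17 to 0.13 for Car13 (0.049 with array quality weights), -0.21 to 0.042 for Car14, -0.037 to 0.086 for Car15 and -0.12 to 0.034 for Slc4a4; the cause was not tested.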
